A study of Mus musculus with 9 samples.

Results

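The keratins are the intermediate filament proteins of epithelial cells, and their messenger RNA was measured here in the conjunctiva, the mucous membrane of the eyelids and eye surface, of mice with and without allergic eye disease. The family was taken as every row of the count table whose symbol is Krt followed by a number, which gave 41 of 20603 genes. The table held 9 libraries in 3 groups of 3, and each library was made from the conjunctiva of 3 mice put together. All mice were on the C57BL/6J background, received 5 injections of tamoxifen at 75 mg/kg in week 5, and were immunised in week 6. The immunisation held ovalbumin (OVA, 250 µg), pertussis toxin (0.3 µg) and, as adjuvant, 5 mg of aluminum hydroxide. Challenged mice then had OVA eye drops, 250 µg in 5 µL, every day for 28 days from day 14 after immunisation, with saline in the other eye. The groups were unchallenged controls (Vegfr3 fl/fl, immunised), challenged controls (Vegfr3 fl/fl, immunised and given OVA drops) and challenged Vegfr3iLECko mice (Vegfr3 fl/fl;Prox1CreERT2, immunised and given OVA drops), called challenged knockouts below. The Prox1 promoter drives an inducible Cre recombinase in lymphatic endothelium, so the deletion is not directed at the epithelial cells that make keratins. There was no unchallenged knockout group. Sex is not stated, nor whether pools of different groups shared mice, and p-values measure the spread between pools.

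A keratin filament is built from pairs of a type I and a type II keratin, and epithelia differ in the pairs they use. Basal cells of stratified epithelia use Krt5 with Krt14 or Krt15, mucosal surfaces such as the conjunctiva use Krt4 with Krt13, and simple epithelial cells use Krt8 and Krt7 with Krt18, Krt19 or Krt20. The stress keratins Krt6a, Krt6b, Krt16 and Krt17 are known to rise in wounded or inflamed skin, Krt1 and Krt10 mark the upper layers of dry epidermis, Krt12 marks the cornea, Krt79 the duct of the sebaceous gland, and a large further set builds hairs, their sheaths and nails. In mice the type I genes other than Krt18 lie in a cluster on chromosome 11, and the type II genes and Krt18 on chromosome 15. Of the 41 keratins, 22 matched a gene on chromosome 11 and 19 a gene on chromosome 15.

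Total counts per library were 16490050 to 24746836, and levels are given as CPM, counts normalised to the library total with TMM factors. A floor of 3 counts was worth 0.115 to 0.186 CPM. It is given as a guide to the limit of counting, and a count of 0 was kept as 0 CPM. Flt4, the gene of Vegfr3, was at 13.4 to 26.8 CPM in the 6 control libraries and at 12.96, 5.07 and 5.32 CPM in challenged knockouts 1 to 3, so knockout 1 was close to the lowest control. The tissue label was checked against marker genes. Pax6, the transcription factor of eye epithelia, was at 223 to 437 CPM and the goblet cell mucin Muc5ac at 46.8 to 889 CPM. Lor (loricrin, of cornified skin) stayed at or below 1.03 CPM, but other epidermal differentiation genes were higher. Sprr1a was at 13.6 to 179 CPM and Tgm1 at 41.9 to 127 CPM, and the list of 13 such genes summed to 96.6 to 298 CPM. Markers of other cells differed in level between the groups. A list of 14 T cell genes summed to 21.7 to 38.4 CPM in the unchallenged controls, 242 to 492 in challenged controls and 57.6 to 108 in challenged knockouts, and 14 skeletal muscle genes to 1884 to 6318, 407 to 1218 and 2672 to 4295 CPM. An adipocyte list of 7 genes summed to 21.8 to 98.5, 5.19 to 16.02 and 33.7 to 54.8 CPM. Their part in the keratin results was not tested, and in whole tissue fewer cells of a type and less RNA per cell cannot be told apart.

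In 2 libraries the keratins or their inducers stood apart from the rest of the group. Challenged knockout 1 held hair and sebaceous transcripts that the other 8 libraries nearly lacked. It was the highest library for 9 of 16 hair and nail keratins and for Krt79, and for 0 of the 3 basal, 9 mucosal, 4 stress and 6 epidermal keratins. Challenged control 1 had the highest levels of several cytokines, with Il1b at 355 CPM against 0.63 to 14.7 CPM in the other 8 libraries and Il6 at 78.4 CPM against at most 0.467 CPM. Several keratin fold changes and class sums are given with and without these libraries. Shares of keratin counts, and the counts and calls of the marker and inducer lists, are given with all 9 libraries only.

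Keratins took 3.13% to 5.69% of all counts in a library. The share was 3.88% ± 0.885 in unchallenged controls, 3.98% ± 0.866 in challenged controls and 4.43% ± 1.27 in challenged knockouts (SD, n = 3 pools each), so the means differed by less than the spread. In each group the library numbered 1 had the lowest summed level, at 29569, 32191 and 29594 CPM against 34512 to 60384 CPM in the other 6 libraries. Challenged knockout 2 was the highest library for 11 of the 41 keratins, among them 3 of 3 basal and 5 of 9 mucosal members. By number of counts, which favours long transcripts, basal keratins made up 59.98% ± 2.74, 56.4% ± 7.56 and 62.2% ± 2.85 of keratin counts in the 3 groups (SD, n = 3). Mucosal keratins made up 24.9% ± 1.13, 24.3% ± 1.94 and 23.0% ± 0.551, and epidermal keratins 1.37% ± 0.0808, 1.47% ± 0.366 and 1.34% ± 0.269. The stress keratins made up 13.5% ± 1.82, 17.7% ± 6.55 and 13.04% ± 2.64. The high mean and wide spread of challenged controls came with library 1, where stress keratins were 25.3% of keratin counts and basal keratins 48.1%, the lowest basal share of the 9 libraries.

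Levels of different genes are compared as CPM per kb of transcript, as means over the 9 libraries. Krt15 led at 7106, followed by Krt5 at 4797, then Krt13 at 1927, Krt4 at 1687, Krt14 at 1371, Krt6b at 1268, Krt6a at 1040 and Krt19 at 1037 CPM per kb. Neighbours from Krt13 down to Krt19 had ranges over the libraries that overlapped. A middle tier held Krt17 at 331, Krt7 at 247, Krt80 at 166, Krt8 at 156, Krt16 at 97.6 and Krt23 at 63.4 CPM per kb. Krt75, Krt18 and Krt78 were between 10.5 and 16.9, and each of the remaining 24 keratins was below 7 CPM per kb. The level of a keratin thus spanned several orders of magnitude within the tissue, while across the 9 libraries the coefficient of variation was 15.7% for Krt6b, 18.4% for Krt10, 22.4% for Krt4 and 34.1% for Krt15. It was 277% to 289% for Krt25, Krt28, Krt35 and Krt79, the members that knockout 1 set apart. Type II keratins summed to 0.721 to 0.953 of the type I sum per kb, with the highest ratio in challenged control 1.

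**Figure D1:**
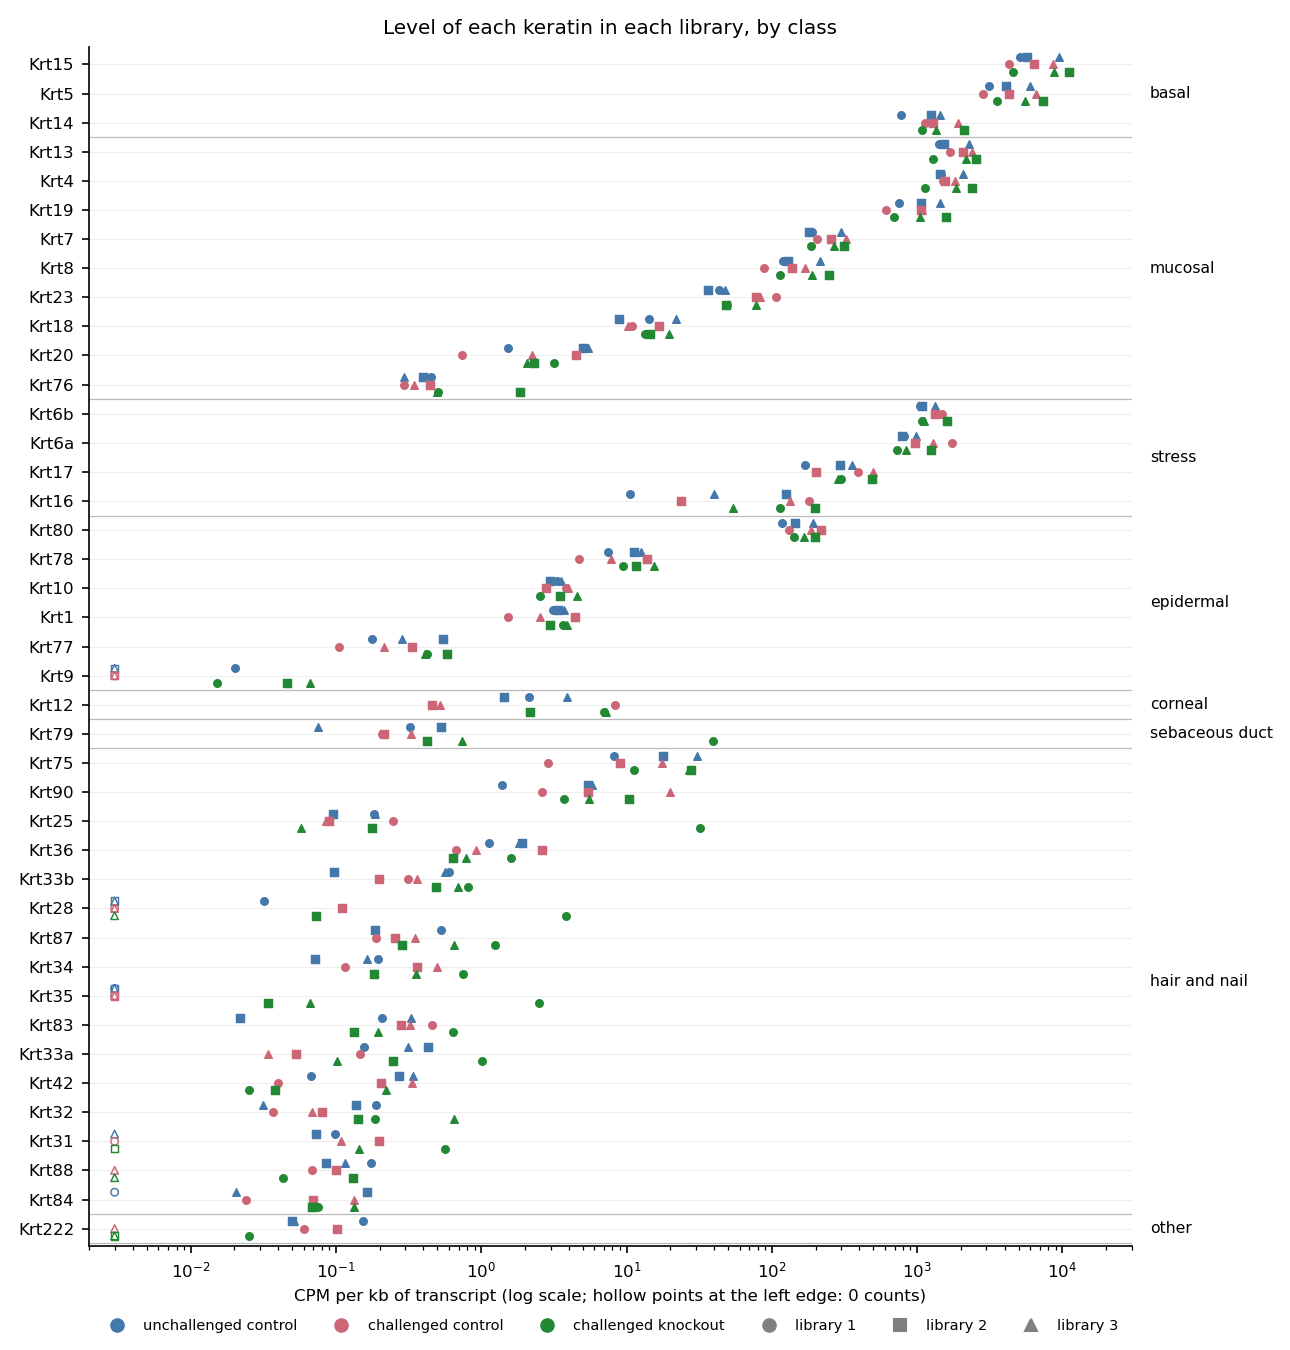
Level of each of the 41 keratins in each of the 9 libraries, as CPM per kb of transcript on a log axis, grouped by class. Colour gives the group, shape the library number, and hollow points at the left edge mark 0 counts; basal and mucosal keratins fill the right of the plot with groups that overlap, and the isolated green circles of Krt79, Krt25, Krt28 and Krt35 are challenged knockout 1.

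The basal keratins were the most abundant class and showed no separation of the groups. Krt15, a type I keratin of basal and progenitor cells, was at 8713, 9655 and 16040 CPM in the unchallenged controls, 7266, 10904 and 14579 CPM in challenged controls and 7802, 18791 and 14964 CPM in challenged knockouts. Krt5, the type II partner of basal cells, was at 6892, 8951 and 13073, then 6279, 9365 and 14345, then 7801, 16101 and 12053 CPM. Within each group the lowest library of Krt5 and of Krt15 was number 1, and the groups overlapped. Krt14, the other type I partner, was at 1316, 2104 and 2453, then 1932, 2180 and 3262, then 1845, 3575 and 2277 CPM. The ratio of Krt5 to Krt14 per kb varied less than either level, from 1.33 on the log2 scale in challenged control 1 to 2.04 in unchallenged control 3. The log2 ratio of Krt5 to Krt15 lay between -0.71 and -0.37 in all 9 libraries.

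Among the mucosal keratins, the pair that marks non-cornified surface epithelium was abundant in every library. Krt4, the type II member, was at 3122, 3081 and 4416 CPM in the unchallenged controls, 3197, 3293 and 3870 CPM in challenged controls and 2404, 5080 and 3924 CPM in challenged knockouts. Krt13, its type I partner, was at 2341, 2532 and 3750, then 2767, 3442 and 3924, then 2127, 4199 and 3601 CPM. Both overlapped between the groups, and the knockouts spanned the widest range. The log2 ratio of Krt4 to Krt13 per kb was 0.05, -0.08 and -0.13 in unchallenged controls and -0.16, -0.43 and -0.39 in challenged controls, which did not overlap. In challenged knockouts it was -0.19, -0.09 and -0.24, overlapping both. The gap between the control groups was small, at -0.06 ± 0.09 against -0.33 ± 0.15 (SD, n = 3), and the ratio was singled out after its values were seen, so no test is given.

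Of the simple epithelial keratins in the mucosal class, Krt19, a small type I keratin without a tail domain, was the most abundant at 1184, 1688 and 2262 CPM in the unchallenged controls, 958, 1687 and 1702 CPM in challenged controls and 1097, 2486 and 1645 CPM in challenged knockouts. Krt7, a type II keratin of glandular and ductal epithelia, was at 775, 741 and 1225, then 835, 1048 and 1321, then 766, 1291 and 1093 CPM. Krt8, the type II keratin of simple epithelia, was at 233, 253 and 422, then 173, 269 and 332, then 221.6, 482 and 371 CPM. Krt18, the usual type I partner of Krt8, was far lower, at 20.4, 12.8 and 31.7, then 15.7, 24.1 and 14.7, then 19.2, 20.9 and 28.1 CPM. Per kb, Krt8 exceeded Krt18 by 3.02 to 4.08 on the log2 scale and was below Krt19 by a log2 ratio of -3.05 to -2.46. A share of 21.97% of the 75-base windows of the Krt8 transcript also occurs in its pseudogene Krt8-ps, which has no row in the table, so some Krt8 reads may have been lost or gained, depending on how multi-mapping reads were counted. Krt20, a type I keratin of gut and urinary lining and of Merkel cells, was at 1.42 to 10.5 CPM and overlapped between the groups.

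Cornified and corneal keratins were scarce. Krt1, a type II keratin of suprabasal epidermis, was at 7.69, 8.27 and 9.13 CPM in the unchallenged controls, 3.77, 10.9 and 6.27 CPM in challenged controls and 8.91, 7.25 and 9.49 CPM in challenged knockouts. Krt10, its type I partner, was at 6.96, 6.20 and 7.45, then 7.98, 5.83 and 8.33, then 5.33, 7.25 and 9.61 CPM. Their log2 ratio per kb ran from -1.31 in challenged control 1 to 0.67 in challenged control 2. Most of the epidermal class by counts was Krt80, a type II keratin found in many epithelia, at 362 to 665 CPM in the 9 libraries. Krt78 was at 16.1 to 53.5 CPM, and Krt9, of palm and sole skin, had at most 3 counts in any library. Krt12, the type I keratin of the corneal epithelium, was at 3.98, 2.64 and 7.19 CPM in the unchallenged controls, 15.5, 0.852 and 0.970 CPM in challenged controls and 13.04, 4.01 and 13.3 CPM in challenged knockouts. The spread of Krt12 within challenged controls exceeded any difference between the groups, and challenged controls 2 and 3 were the lowest of the 9 libraries. Aldh3a1, an enzyme abundant in cornea, was at 2123, 1446 and 3718 CPM in the unchallenged controls, 1029, 1179 and 1802 CPM in challenged controls and 1569, 2777 and 3560 CPM in challenged knockouts. Unchallenged controls had the same order for both genes and knockout 3 was high for both, while challenged control 1 had the highest Krt12 and the lowest Aldh3a1 level. The part of corneal tissue in the Krt12 values was not tested.

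The stress keratins were present in unchallenged tissue, and their groups overlapped. Krt6a, a type II keratin of activated keratinocytes, was at 1838, 1787 and 2236 CPM in the unchallenged controls, 3940, 2199 and 2935 CPM in challenged controls and 1652, 2826 and 1909 CPM in challenged knockouts. Krt6b, its close copy, was at 2341, 2402 and 2958, then 3304, 2949 and 3056, then 2425, 3584 and 2493 CPM. For both, challenged control 1 was the highest control library, and the lowest challenged control lay just below the highest unchallenged one. Krt16, a type I partner of the Krt6 proteins, was at 16.4, 195 and 62.4, then 284, 37.1 and 209, then 177, 309 and 84.2 CPM, an 18.8-fold range over the 9 libraries. Krt17, a type I keratin of skin appendages and healing wounds, was at 261, 460 and 548, then 604, 314 and 768, then 462, 764 and 442 CPM. The high libraries differed between members: Krt6a peaked in challenged control 1, Krt17 in challenged control 3, and Krt6b and Krt16 in challenged knockout 2. The summed level of the class was 4457, 4845 and 5804 CPM in the unchallenged controls, 8132, 5498 and 6968 in challenged controls and 4716, 7483 and 4928 in challenged knockouts. This gave means of 5035 ± 694, 6866 ± 1320 and 5709 ± 1540 CPM (SD, n = 3), and 6233 CPM for challenged controls without library 1.

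Krt6a and Krt6b share much of their sequence, which limits how well counts separate them. Of the 75-base windows of the Krt6a transcript, 42.3% occur in another gene and 36.2% in Krt6b. For Krt6b 39.6% are shared, and for Krt16 28.9%, of which 22.5% of its windows match Gm11597, which has no row in the table. The log2 ratio of Krt6a to Krt6b per kb was -0.38, -0.45 and -0.43 in unchallenged controls, 0.23, -0.45 and -0.09 in challenged controls and -0.58, -0.37 and -0.41 in challenged knockouts. Challenged controls 1 and 3 were thus the libraries in which Krt6a was highest relative to Krt6b. The log2 ratio of Krt6a to Krt16 was far less steady, at 2.65 to 6.26.

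Krt79, a type II keratin of the sebaceous duct and upper hair follicle canal, was nearly confined to challenged knockout 1. The 9 values were 0.680, 1.11 and 0.157 CPM in the unchallenged controls, 0.433, 0.448 and 0.684 CPM in challenged controls, and 82.7, 0.885 and 1.54 CPM in challenged knockouts 1 to 3. In counts, knockout 1 held 2124 and no other library more than 29, so its level was 110-fold that of the other 8 libraries pooled. Krt25, a type I keratin of the inner root sheath that encases a growing hair, had 1639 counts there (63.8 CPM) and at most 8 in any other library (0.495 CPM or less), a 235-fold difference from the other 8 pooled. Krt28, another inner root sheath keratin, had 160 counts there (6.23 CPM) and at most 4 elsewhere. Krt35, a type I keratin of the hair shaft, had 111 counts there and 3 in the other 8 libraries together. The hair shaft keratins Krt31, Krt33a, Krt34, Krt83 and Krt87 were lower in level, with 23, 44, 31, 29 and 73 counts in knockout 1, each the highest of the 9 libraries.

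Not every follicle keratin followed knockout 1. Krt75, a type II keratin of the companion layer between the follicle sheaths, was at 26.9, 58.4 and 100.3 CPM in the unchallenged controls, 9.46, 29.4 and 57.5 CPM in challenged controls and 36.5, 91.1 and 87.7 CPM in challenged knockouts, so knockout 1 was the lowest of its group. Krt90 was highest in challenged control 3, at 50.5 CPM against 3.51 to 26.5 CPM in the other libraries. Krt36 was highest in challenged control 2, at 4.35 CPM. Krt33b was low but highest in knockout 1, at 1.28 CPM against at most 1.09 CPM elsewhere. The remaining hair and nail members, Krt32, Krt42, Krt84 and Krt88, were at or below 1.09 CPM in every library. Several hair shaft keratins share sequence, with 24.7% of the 75-base windows of Krt34, 22.4% of Krt87 and 19.1% of Krt31 found in another gene, so their low counts may be split among them. Krt79 shared none, Krt28 0.839% and Krt25 4.18%.

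**Figure D2:**
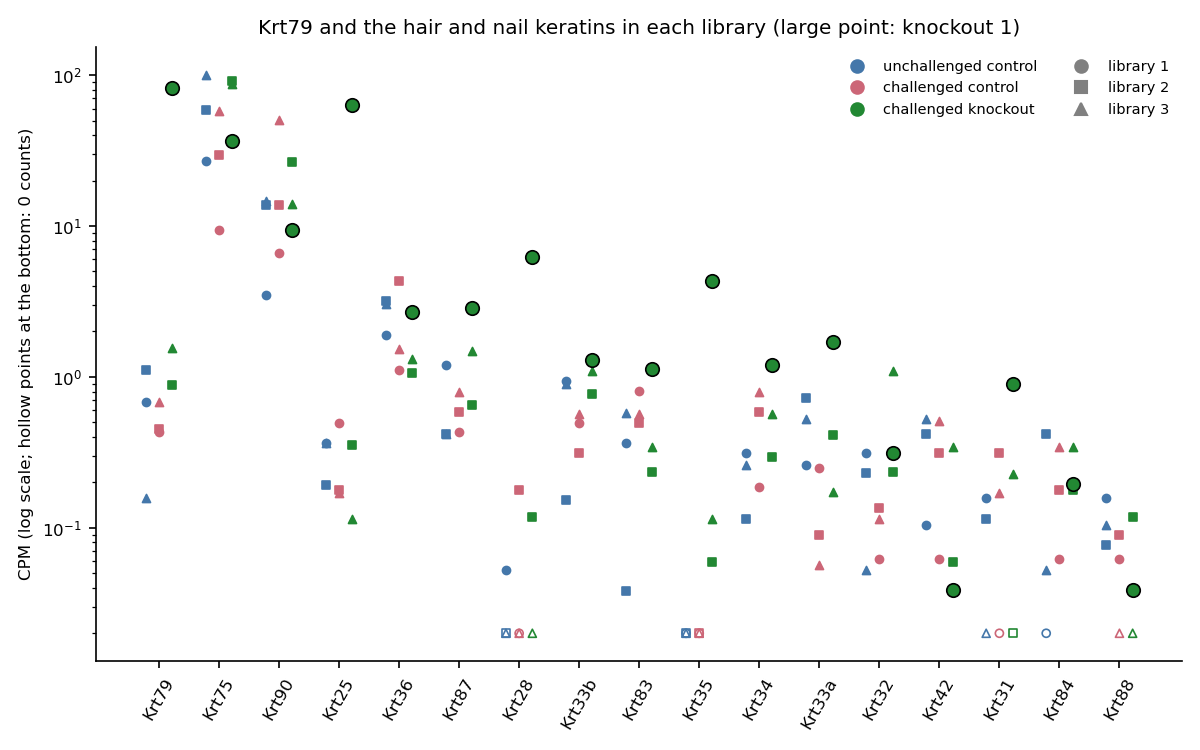
CPM on a log axis of Krt79 and the 16 hair and nail keratins in the 9 libraries, with challenged knockout 1 drawn as the large outlined circle and 0 counts as hollow points at the bottom. Knockout 1 is far above the rest for Krt79, Krt25, Krt28 and Krt35, and within the range of the other libraries for Krt75, Krt90 and Krt36.

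Markers of sebaceous gland and hair moved in the same library. Of 10 sebaceous and meibomian genes 8 were highest in knockout 1, and the list summed to 1788 CPM there against 377 to 534 CPM elsewhere. Awat2, a wax ester synthase of the meibomian gland, was at 74.4 CPM against 0.342 to 0.762 CPM, and Elovl4, which extends very long fatty acids, at 150 CPM against 0.114 to 1.05 CPM. Tchh (trichohyalin, of the inner root sheath) was at 91.2 CPM against 3.53 to 8.29 CPM, and 5 of 8 hair follicle genes were highest there. Krt1 and Krt10 were not highest in that library, but 5 of 13 epidermal differentiation genes and 3 of 6 melanocyte genes were. Among the epidermal genes, Krtdap, a protein of differentiating keratinocytes, was at 15.3 CPM against at most 0.743 CPM. Their part in the Krt79 values was not tested.

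The start regions of the knockout 1 keratins are shown because these genes moved together in 1 library. Each is the 250 bases before the RefSeq gene start, from the build GRCm38.p6, which is not the authors' build. They are on the minus strand at chr15:101940325-101940574 for Krt79, chr11:99322952-99323201 for Krt25 and chr11:99374904-99375153 for Krt28, and are written 5′ to 3′ along the gene. Capitals mark a match to any of 4 motifs searched on both strands. They were the AP-1 motif (TGANTCA), the STAT motif (TTCNNNGAA), the LEF/TCF motif (CTTTGA) and the TATA box (TATAAA).
Krt79: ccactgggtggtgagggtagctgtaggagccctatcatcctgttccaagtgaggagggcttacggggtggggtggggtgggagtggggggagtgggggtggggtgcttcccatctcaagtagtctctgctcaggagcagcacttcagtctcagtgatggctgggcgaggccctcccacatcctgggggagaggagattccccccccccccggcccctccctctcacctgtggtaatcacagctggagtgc
Krt25: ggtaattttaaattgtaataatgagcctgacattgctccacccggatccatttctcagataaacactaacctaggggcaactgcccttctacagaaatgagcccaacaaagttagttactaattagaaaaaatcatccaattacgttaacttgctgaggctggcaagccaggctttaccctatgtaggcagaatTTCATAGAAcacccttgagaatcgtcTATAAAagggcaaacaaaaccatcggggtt
Krt28: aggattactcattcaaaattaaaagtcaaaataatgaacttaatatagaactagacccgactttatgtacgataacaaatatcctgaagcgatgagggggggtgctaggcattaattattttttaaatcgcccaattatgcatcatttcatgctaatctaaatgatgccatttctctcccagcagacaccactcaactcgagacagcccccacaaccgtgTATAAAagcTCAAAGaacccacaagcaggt
Krt25 and Krt28 each held the TATA box 30 to 25 bases before the start. Krt25 also held the STAT motif 56 to 48 bases before it, and Krt28 held the LEF/TCF motif on the reverse strand 21 to 16 bases before it. Krt79 held none of the 4 in this window. The TATA box was in 11 of the 26 keratin windows in the table (42.3%), against 12.4% of all 32851 windows. The other motifs were in 1, 3 and 7 keratin windows for AP-1, STAT and LEF/TCF, against 6.75%, 7.02% and 13.8% of all windows. A match in so short a window describes the letters only.

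The first comparison asked how daily OVA challenge altered keratin transcripts in control mice, and Krt23 was the keratin that separated the groups. Krt23 is a type I keratin whose use is less well defined than that of the others, placed here with the mucosal class. Its 9 values were 67.4, 57.0 and 74.7 CPM in the unchallenged controls, 168, 121 and 130 CPM in challenged controls and 77.3, 76.0 and 122 CPM in challenged knockouts. Every challenged control was above every unchallenged one, and knockout 3 lay just above the lowest challenged control while the other 2 knockouts lay below it. The means were 66.4 ± 8.89, 140 ± 25.3 and 91.6 ± 25.9 CPM (SD, n = 3). By edgeR's quasi-likelihood test the difference with challenge was 2.11-fold (log2 1.07, SE 0.22, unadjusted p of 0.000676), which did not pass after Benjamini-Hochberg adjustment over all genes (adjusted p = 0.101). With the library number as a block over all 9 libraries, Krt23 passed (log2 1.08, SE 0.18, adjusted p = 0.0335 by edgeR). The labels state no pairing. It was read from correlations in these same data, in which the numbers matched between the control groups but not for all knockouts. With the block in the control groups alone, a fit added once the data had been examined, Krt23 also passed (log2 1.07, SE 0.13, adjusted p = 0.0225). Its adjusted p over the other settings ran from 0.00160 with DESeq2 to 0.386 without unchallenged control 2, and its log2 fold change from 0.92 without challenged control 1 to 1.17 without unchallenged control 3.

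The start region of Krt23, the 250 bases at chr11:99493121-99493370 on the minus strand of GRCm38.p6, is shown. Krt23 was the tested keratin whose control groups did not overlap, although it did not pass by edgeR without the block. None of the 4 motifs occurred in this region.
Krt23: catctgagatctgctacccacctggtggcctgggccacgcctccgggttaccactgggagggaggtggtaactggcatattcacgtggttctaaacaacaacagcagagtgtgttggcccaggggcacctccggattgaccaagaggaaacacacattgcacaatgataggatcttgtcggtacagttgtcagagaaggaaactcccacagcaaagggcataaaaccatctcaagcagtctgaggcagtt
No 75-base window of the Krt23 transcript occurs in another gene of the annotation.

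**Figure D3:**
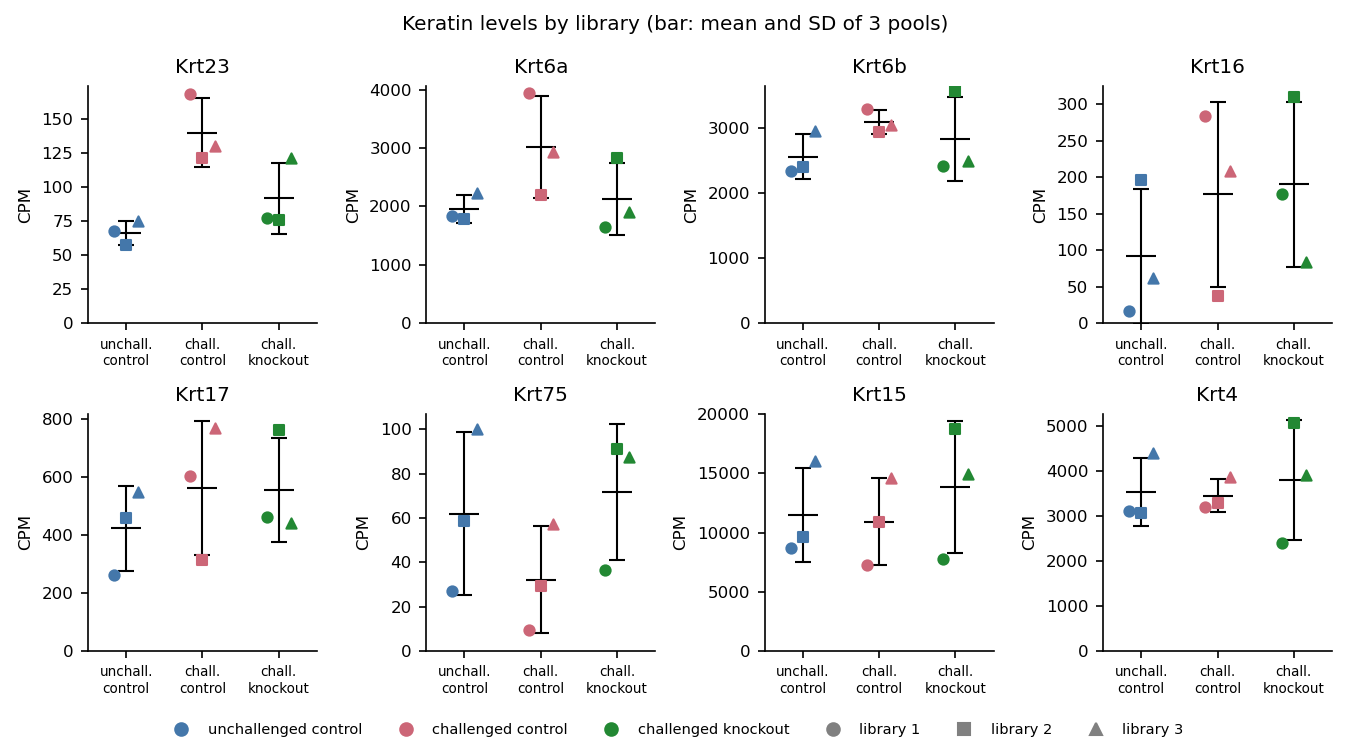
CPM of 8 keratins by library in the 3 groups, with each axis from 0; horizontal bars are the mean and whiskers the SD of 3 pools, cut at 0 for Krt16 in unchallenged controls. Krt23 is the only panel in which all challenged controls, at 121 to 168 CPM, lie above all unchallenged controls, at 57.0 to 74.7 CPM.

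No keratin passed by edgeR without the block. Of the 41 keratins, 30 had enough counts to be tested, and 0 of the 30 had an adjusted p of 0.05 or less by edgeR, where 0.064% of all 15613 genes tested passed. With the block 1 of 30 passed, Krt23, against 1.71% of all genes, and with DESeq2 1 of 34, again Krt23, against 4.33%. At an unadjusted p under 0.05 there were 2 keratins (6.67%), Krt23 and Krt6a, where all genes gave 12.4%. Groups did not overlap for 1 of 30 (3.33%) against 15.7% of all genes, or 7.21% counting only genes higher with challenge. Log2 fold changes were above 0 for 15 of the 30 (50%, against 48.5% of all genes) and the median was 0.01, beside -0.01 over all genes tested. In 20 of the 30 the size of the log2 fold change was within 0.5. By the unadjusted p and by overlap the keratin share was below that of all genes, and 1 or 0 calls in 30 carry little weight against the other shares.

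The stress keratins had positive values with challenge but did not pass. The log2 fold change was 0.63 for Krt6a (SE 0.28, unadjusted p of 0.0471, adjusted p = 0.394 by edgeR), 0.27 for Krt6b (SE 0.22), 0.95 for Krt16 (SE 0.88) and 0.41 for Krt17 (SE 0.38), and the adjusted p of the last 3 was 0.714 to 0.772. Without challenged control 1, Krt6a was at 0.40 and Krt16 at 0.43, and without unchallenged control 2 Krt16 was at 2.16. Challenged control 1 was also the library with the highest Il1b, Il6, Hbegf and Areg, and their part in these values was not tested. The basal and mucosal pairs were closer to 0, with log2 fold changes of 0.05 for Krt5 (95% interval from the SE, -0.72 to 0.82), -0.07 for Krt15 (-0.86 to 0.72), 0.33 for Krt14 (-0.32 to 0.98), -0.04 for Krt4 (-0.60 to 0.53) and 0.23 for Krt13 (-0.35 to 0.82). The intervals use a normal approximation and are narrower than a 95% interval that allows for few pools. They still reach well to either side of 0, so the data do not show that these keratins stayed level. Krt75 had the most negative value, -0.94 (SE 0.63, adjusted p = 0.640). It was the other keratin to pass when the block was fitted in the control groups alone (log2 -1.09, SE 0.16, adjusted p = 0.0321), a fit added once the data had been examined, in which 3.12% of all genes passed. For each library number the challenged control had less Krt75 than the unchallenged one. Its adjusted p over the remaining settings was 0.0616 with the block over all 9 libraries and 0.369 to 0.927 when 1 library was left out.

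The second comparison asked whether deletion of Vegfr3 in lymphatic endothelium altered keratins in challenged mice. No keratin passed. By edgeR 0 of the 30 were called, where 0% of all genes passed, and 0 of 30 with DESeq2, where 1.52% did, or with the block, where 0.141% did. At an unadjusted p under 0.05 there were 3 keratins (10%, against 8.49% of all genes): Krt79, Krt23 and Krt76. Log2 fold changes were above 0 for 20 of 30 keratins (66.7%, against 50.4% of all genes), with a median of 0.20 beside 0.00272 over all genes. Groups did not overlap for 4 of 30, Krt33b, Krt76, Krt77 and Krt79, each higher in knockouts (13.3%, against 12.9% of all genes without overlap and 6.7% higher without overlap). These 4 were at or below 4.31 CPM in all libraries other than Krt79 in knockout 1.

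Krt79 had a log2 fold change of 5.76 between challenged knockouts and challenged controls (SE 1.63, unadjusted p of 0.00562, adjusted p = 0.376 by edgeR). Without knockout 1 it was 1.21, at levels of 0.885 and 1.54 CPM against 0.433 to 0.684 CPM, so the size of the value rested on that library. Krt76, a type II keratin of the palate and other oral mucosa, was at 1.05, 0.919 and 0.682 CPM in the unchallenged controls, 0.680, 1.03 and 0.798 CPM in challenged controls and 1.17, 4.31 and 1.14 CPM in challenged knockouts. Its log2 fold change was 1.38 (SE 0.58, unadjusted p of 0.0403, adjusted p = 0.564), and 0.46 without knockout 2. Krt23 was lower in the knockouts than in challenged controls by a log2 fold change of -0.61 (SE 0.22, unadjusted p of 0.0195, adjusted p = 0.494), from -0.86 without knockout 3 to -0.45 without challenged control 1. Krt6a was at -0.51 (SE 0.28, adjusted p = 0.661), and -0.27 without challenged control 1. Krt5, Krt15 and Krt4 were at 0.26, 0.34 and 0.14, each with an SE of 0.29 to 0.40. The knockout libraries also had more muscle and less T cell transcript than the challenged controls, and the part of these cells was not tested.

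**Figure D4:**
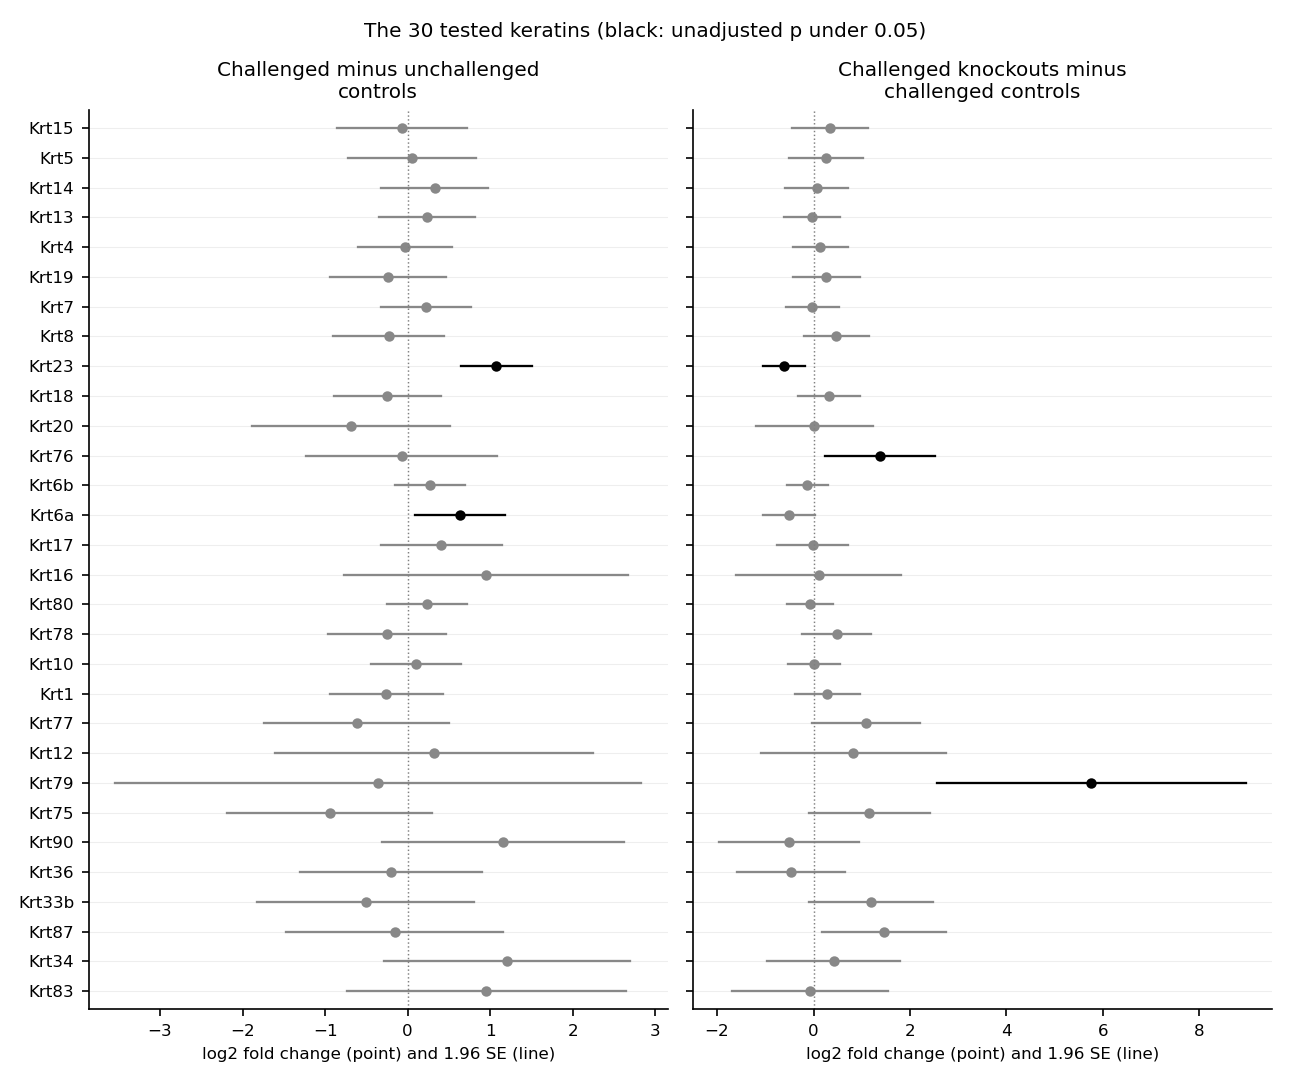
Log2 fold change of the 30 tested keratins with challenge in controls (left) and with genotype under challenge (right). Points are edgeR estimates, lines an approximate 95% interval from the SE by a normal approximation, and black marks an unadjusted p under 0.05. Krt23 is above 0 on the left and below 0 on the right, while most keratins lie near 0 in both. Krt87 on the right has a line clear of 0 but an unadjusted p of 0.0508, since the test allows for few pools.

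Challenged knockouts were also set against unchallenged controls, a comparison that shares libraries with each of the others. By edgeR 0 of 30 keratins passed, where 0% of all genes did, and 0 of 37 with DESeq2, where 0.0585% did. At an unadjusted p under 0.05 there were 2, Krt79 and Krt76 (6.67%, against 2.9% of all genes). Log2 fold changes were above 0 for 28 of 30 keratins, against 50.7% of all genes, and the median was 0.26. These signs come from the same few libraries and are not independent. The summed keratin level overlapped, at 29594 to 60384 CPM in challenged knockouts against 29569 to 50341 CPM in unchallenged controls. Groups did not overlap for Krt76 and Krt23, both higher (6.67%, against 6.59% of all genes without overlap and 3.26% higher without overlap). Krt79 was at 5.40 (SE 1.58, adjusted p = 0.999), and 0.88 without knockout 1. Krt76 was at 1.31, and 0.39 without knockout 2. Krt23 was at 0.46 (SE 0.22, adjusted p = 0.999), with every knockout library above every unchallenged one, at 76.0 to 122 against 57.0 to 74.7 CPM. Side by side, Krt23 had log2 fold changes of 1.07 for challenge in controls, -0.61 for genotype and 0.46 for challenged knockouts against unchallenged controls. None passed by edgeR without the block (adjusted p = 0.101, 0.494 and 0.999). With the block over all 9 libraries the first passed and the others did not (adjusted p = 0.0335, 0.158 and 0.656). The library numbers did not pair all knockouts, which limits the block for the last 2.

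Genes that work with keratins were compared in the same fits. Of 12 tested partners of the filament, the desmosome and plakin proteins and keratin-binding proteins, 0 passed by edgeR, by DESeq2 or with the block in any comparison, and 0 reached an unadjusted p under 0.05. Dsp (desmoplakin), which anchors keratin to desmosomes, was at 1721 ± 276, 1955 ± 418 and 1851 ± 288 CPM in the 3 groups, and Ppl (periplakin) at 1140 ± 188, 1343 ± 266 and 1382 ± 241 CPM (SD, n = 3). The median log2 fold change of the partners was 0.15 with challenge and 0.07 with genotype, beside -0.01 and 0.00272 over all genes. Of 12 regulators of keratin genes, 0 passed by either tool or with the block, and 2 of the 12 had an unadjusted p under 0.05 with challenge, where 12.4% of all genes did, 0 with genotype (8.49% of all genes) and 1 between challenged knockouts and unchallenged controls (2.9%). A share of 2 in 12 is near that of all genes. Those with challenge were Grhl3, a transcription factor of epithelial barrier formation, with a log2 fold change of 0.57 (SE 0.22, adjusted p = 0.308), and Ovol1, which promotes exit of keratinocytes from the cell cycle, at 0.68 (SE 0.27, adjusted p = 0.323). Grhl3 was at 93.0, 77.7 and 125 CPM in the unchallenged controls, 155, 123 and 162 CPM in challenged controls and 92.3, 138 and 128 CPM in challenged knockouts, with an overlap between the control groups. Trp63, the master factor of stratified epithelium, was at 249 ± 34.1, 244 ± 40.9 and 251 ± 24.1 CPM.

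A list of inducers of stress keratins held growth factors and cytokines known to raise Krt6a, Krt16 and Krt17, with the receptor Egfr and the signalling factor Stat3, and summed highest in challenged control 1. Of 14 tested, 0 passed by edgeR with or without the block, while DESeq2, with 12 tested, called Ifng and Tnf higher with challenge (4.33% of all genes were called) and Il1a lower with genotype (1.52% of all genes). At an unadjusted p under 0.05 there were 9 of 14 with challenge, all of them higher, where 12.4% of all genes passed, and 5 of 14 with genotype, all of them lower, where 8.49% did. The median log2 fold change was 1.26 with challenge and -1.05 with genotype. Summed over the 15 genes in the table the level was 673 to 771 CPM in the unchallenged controls, 1974, 736 and 821 CPM in challenged controls and 718 to 781 CPM in challenged knockouts. Egfr, at 217 to 258 CPM, and Stat3, at 218 to 465 CPM, made up much of that sum. Tnf was at 6.54, 7.35 and 2.78 CPM in the unchallenged controls, 27.2, 12.0 and 12.4 CPM in challenged controls and 4.83, 6.25 and 9.83 CPM in challenged knockouts, so each challenged control was above the other 6 libraries. Osm, a cytokine of the interleukin-6 family, was at 0.105 to 0.210, then 21.7, 0.717 and 0.970, then 0.0572 to 0.895 CPM. Hbegf, a ligand of the EGF receptor, was at 250 CPM in challenged control 1 against 40.8 to 120 CPM elsewhere, and Areg, another such ligand, at 84.8 against 18.1 to 32.5 CPM. Ifng was at 0, 0.0766 and 0 CPM in the unchallenged controls, 21.0, 1.61 and 2.28 CPM in challenged controls and 0.117, 1.003 and 0.343 CPM in challenged knockouts. For Ifng too, each challenged control was above the other 6 libraries. The part of these genes in the keratin values was not tested.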

How the data were processed

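Messenger RNA of pooled conjunctiva was sequenced in 9 libraries. The deposited values are raw read counts by gene symbol, as whole numbers. HISAT2, Bowtie2 and DESeq2 with the build mm39 were used by the authors, per the submitters' processing notes. The counting program, annotation, versions, strand and read length are not given in the sources. The files were analysed with edgeR 4.0.16 (R 4.3.3): filterByExpr on the 3 groups, TMM scaling, and 1 quasi-likelihood fit over all 9 libraries, with two-sided tests and Benjamini-Hochberg adjustment over 15613 genes at 0.05. The fit was tested on simulated data with changes larger than most of those seen for the keratins, so that check does not measure its power at their size. The biological coefficient of variation was 31.7%. CPM per kb used the length of the principal transcript in an annotation of GRCm38, which also gave the 75-base windows; promoters came from RefSeq.

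The members, classes and lists, and the rule for the keratins named with every value, were chosen with earlier results of these data known. That rule took the leading keratin of each class, any that passed with or without the block, and up to 5 per comparison with an unadjusted p under 0.05 and groups without overlap. Further keratins were named after their values were seen. Of 55 symbols in the class lists, 14 were not analysed here. A list of 5 tested goblet cell genes and 1 of 2 melanocyte genes had 0 genes called by edgeR, DESeq2 or with the block in any comparison, and 0 with an unadjusted p under 0.05. Of 10 tested epidermal genes, 0 passed by edgeR with or without the block. At an unadjusted p under 0.05 there were 4 with challenge, where 12.4% of all genes passed, 1 with genotype (8.49%) and 2 between challenged knockouts and unchallenged controls (2.9%). DESeq2 called Sprr1a higher with challenge, Krtdap higher and Lce3a lower with genotype, and Krtdap higher between challenged knockouts and unchallenged controls (4.33%, 1.52% and 0.0585% of all genes). Alternatives were RLE or no scaling, no filter, DESeq2 1.42.0, only the compared groups, a replicate block, and leaving out each library.

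Each challenged control correlated best with the unchallenged control of its own number, at 0.458, 0.245 and 0.488 for the deviations from the group mean. With 3 libraries per group, such a match cannot show that the pools were paired. Knockouts 1 and 3 also correlated best with their own number, at 0.339 and 0.334 with challenged controls and 0.318 and 0.334 with unchallenged controls. Knockout 2 did not, at -0.147 and -0.0889, so the numbers did not pair all knockouts. No library was a copy of another in its group, and libraries of different groups were not compared in this way. Floors cover counting error only, while intervals of fold changes come from the SE of the fit and include the spread between pools.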

Additional observations from a re-analysis of the deposited data

How the results depend on the processing

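With challenge in controls, 10 genes were called in all. The count was 267 with the replicate block, 751 with DESeq2, 20 without a filter on low counts and 1 with the control groups alone. It ranged from 0 to 121 when 1 library was left out, with 121 without unchallenged control 1, 0 without unchallenged control 2 or 3, 35 without challenged control 2, 1 without challenged control 3, 6 without knockout 1 and 5 without knockout 3. With the block in the control groups alone, chosen after the data were seen, it was 476. Keratins called numbered 0, but 1 with the replicate block and 1 with DESeq2 (Krt23), and 2 with the block in the control groups alone (Krt23 and Krt75). With genotype, 0 genes became 22 with the replicate block, where the numbers do not pair all knockouts, and 239 with DESeq2, with 0 keratins in each. Between challenged knockouts and unchallenged controls 0 genes became 12 with DESeq2. The causes were not tested. The block changed no other keratin call.

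The sign turned for Krt5 with challenge (-0.00504 without a scaling factor, and -0.30 to 0.34 when 1 library was left out), for Krt15 (-0.34 to 0.25) and Krt4 (-0.13 to 0.16) with challenge, and for Krt5 (-0.0086 to 0.62) and Krt4 (-0.12 to 0.38) with genotype, both without knockout 2. Other log2 fold changes of the keratins followed here kept their sign, and 328 of 341 values in all kept both sign and call, 9 turned and 4 newly passed. Of the mean class sums, that of Krt12 in challenged controls was 5.76 CPM and 0.911 CPM without challenged control 1, and that of hair and nail keratins 61.6 CPM and 35.5 CPM without challenged control 3. Krt79 in knockouts was at 28.4 CPM and 1.21 CPM without knockout 1, and in unchallenged controls at 0.649 and 0.419 CPM without library 2. Other class sums above 1 CPM moved by less than 1.5 times. Leaving out the scaling factor moved the median of all genes with challenge by -0.0676 (log2). The 11 keratins that were not tested had at most 19 counts in any library but knockout 1. Krt25, Krt28 and Krt35 were among them, with 1639, 160 and 111 counts in knockout 1, so the filter removed them for low counts in the other libraries.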
